A study of Danio rerio with 73 samples.

Results

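A set of 3 stretches of DNA that were highly methylated in zebrafish gonads is described here, CpG by CpG. They lay on chromosomes 8, 14 and 20 and held 24 of the 324 CpGs that were read at least 10 times in at least 50% of all fish. The members were every such CpG from the coordinates chr8:29856084, chr14:23501841 and chr20:1252974 to positions 450 bp higher on the genome build GRCz10. The amplicons were chosen by their mean methylation level over all fish, about 90% or more, so that level is given as a description with no test. An amplicon is a stretch of DNA copied by 1 primer pair, and here it is a run of CpGs no more than 200 bp apart. The mean level was 93.1% on chromosome 8, 94.8% on chromosome 14 and 90.1% on chromosome 20, and the next amplicon of the 20 in the series, on chromosome 16, had 73.6%. A further 2 listed CpGs in the windows did not qualify, since chr14:23502211 reached 10 reads in 1 fish and chr8:29856487 in 0 fish.

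The DNA came from mature testes and ovaries of 73 laboratory fish of the AB strain, 90 days old. The gonads had formed at 36 °C or at 28 °C, and the study asked whether early heat left a lasting mark in adult gonads. Promoter regions of 18 genes were amplified after bisulfite treatment, in which a cytosine without a methyl group comes to be read as T while a methylated one is still read as C. A methylation level is the percent of reads at a CpG that kept the C. Sample titles carried a prefix, 128 or 204, that the labels do not define, so all comparisons stayed within a prefix or compared the prefixes. Testes after 36 °C came from 12 fish with prefix 128 and 8 fish with prefix 204. The 28 °C testes were from 13 fish of prefix 128 and 10 of prefix 204. Ovaries after 36 °C came from 12 fish, all with prefix 204, and ovaries after 28 °C from 9 fish with each prefix. The labels do not say whether fish shared a tank or family, so the p-values rest on how far these fish varied. Each sample was a whole gonad, so a change in the shares of its cell types and a change of methylation within cells cannot be told apart.

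In vertebrates, cytosines followed by guanine are methylated over most of the genome, and many active promoters are left unmethylated. Methyl groups are placed by DNA methyltransferases and copied to the new strand at each cell division, and they are diluted where copying fails or removed by TET enzymes through oxidation. In zebrafish, sperm carries a highly methylated genome, whereas the oocyte genome is less methylated at many sites and is reset to a sperm-like pattern in the early embryo. A mature testis is rich in sperm and a mature ovary in oocytes with their follicle cells.

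The chromosome 8 amplicon held 4 CpGs between positions 29856084 and 29856417 on the plus strand, spaced 98 to 136 bp apart. The chromosome 14 amplicon held 10 CpGs between 23501841 and 23502150, all reported on the minus strand, with neighbours 3 to 88 bp apart. The chromosome 20 amplicon held 10 CpGs between 1252974 and 1253280 on the plus strand, with neighbours 5 to 120 bp apart. The files give 3 bases of sequence for each CpG, from its cytosine onwards, and 9 members read CGA, 6 CGC, 6 CGG and 3 CGT. Gene annotation of GRCz10 was not used here, so the amplicons carry no gene names and their place in exon, intron or untranslated region is not given.

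Depth was high at nearly all members. Fish gave 711295 to 12565602 calls over all CpGs, except ovary 36 °C prefix 204 fish 14 with 1404, which had no member level. The median number of reads per fish was 20504 to 20749 at the members on chromosome 8, 13938 to 23819 on chromosome 14 and 14918 to 15136 on chromosome 20. An amplicon level, the mean over its CpGs in a fish, was available for 69 fish on chromosome 8, 72 on chromosome 14 and 71 on chromosome 20. The shallowest values on chromosome 14 came from testis 28 °C prefix 128 fish 6, with a median of 12 reads per CpG, and testis 36 °C prefix 128 fish 2, with 16.

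Some libraries stood apart from others with the same label. The libraries labelled testis 28 °C prefix 128 fish 20 and fish 22 had chromosome 20 levels of 86.2% and 86.4%, where the other 11 fish of that group had 94.4% to 97.7%. The libraries labelled testis 36 °C prefix 204 fish 1 and fish 17 had 84.4% and 86.4% there, where the other 6 fish had 94.7% to 97.3%. These 4 libraries were singled out by their levels, so values without them are printed only to show how far they carry a result. All 9 measured testes of 28 °C with prefix 204 also lay among the ovaries on chromosome 20, at 81.9% to 89.4%, against 81.4% to 91.0% over the 3 ovary groups.

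Near-full methylation was a property of some CpGs in every group. Of the 24 members, 6 had a group mean of at least 95% in all 7 groups, and all 6 were on chromosome 14. They were 23501841, 23501850, 23501869, 23501896, 23501949 and 23502053. Their lowest group mean was 95.5%, at 23501896 in ovaries of 28 °C with prefix 204. Their highest was 98.4%, at 23502053 in testes of 36 °C with prefix 128. A further chromosome 14 CpG, 23502062, was at least 95% in all 3 ovary groups and reached 93.9% in testes of 28 °C with prefix 204. On chromosomes 8 and 20, 0 of 14 members were at or above 95% in all 3 ovary groups.

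Testes with prefix 128 were mostly near full methylation at all 3 sites. Testes of 36 °C with prefix 204 had a mean of at least 95% at 9 of 10 members on chromosome 14. On chromosomes 8 and 20 they had it at 2 of 4 and 4 of 10 members. The number of members with a mean of at least 95% was 22 of 24 in testes of 36 °C with prefix 128, 20 in testes of 28 °C with prefix 128 and 15 in testes of 36 °C with prefix 204. It was 6 in testes of 28 °C with prefix 204. Ovaries had 8 such members after 36 °C with prefix 204, 7 after 28 °C with prefix 128 and 7 after 28 °C with prefix 204. No testis group except that of 28 °C with prefix 204 had a member mean under 90%.

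The lower level in ovary was uneven along the amplicons. Of the 24 members, 12 had a mean below 90% in every ovary group: 8 of 10 on chromosome 20, 2 of 10 on chromosome 14 and 2 of 4 on chromosome 8. On chromosome 20 the lowest was 1253053, with 76.1% in ovaries of 36 °C, 70.9% in ovaries of 28 °C with prefix 128 and 72.7% in ovaries of 28 °C with prefix 204. On chromosome 14 the low members were 23502026, at 80.1%, 83.6% and 76.2% in the same order of groups, and 23502150, at 83.8%, 75.2% and 80.8%. On chromosome 8 they were 29856183, at 87.4%, 86.7% and 84.3%, and 29856417, at 89.0%, 89.8% and 88.7%. The profile of means along each amplicon shows these dips in the ovaries and in testes of 28 °C with prefix 204, and flatter lines in the other 3 testis groups.

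**Figure D1:**
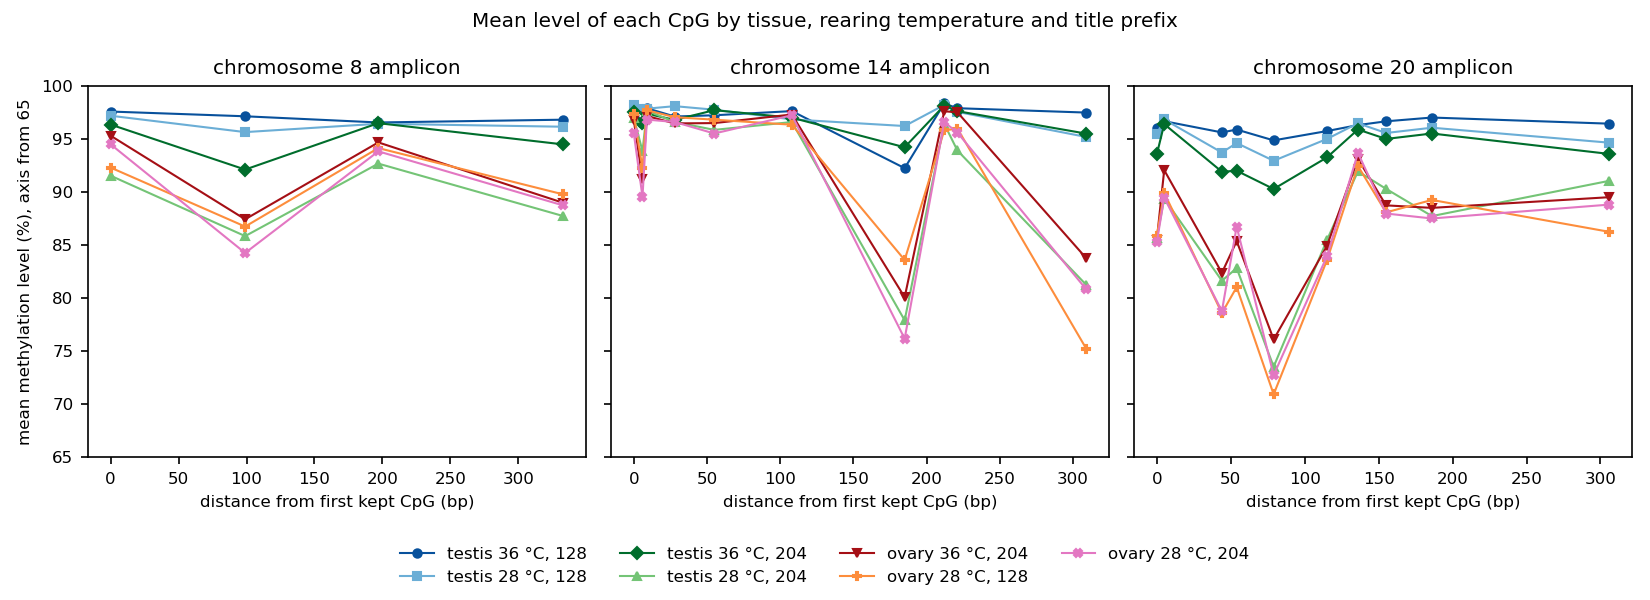
Mean methylation level (%, axis starting at 65) of each member CpG against its distance in bp from the first kept CpG of its amplicon, with a line for each of the 7 groups. Testes of 36 °C (both prefixes) and of 28 °C with prefix 128 stay above 90% throughout, while the ovaries and the 28 °C testes with prefix 204 dip to 70.9% to 83.8% at the lowest CpGs of chromosomes 14 and 20.

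On chromosome 14, 23501847 and 23502026 were lower in ovary than the CpGs on either side, and 23502150 was the last kept CpG of the amplicon. Position 23501847 had 91.2% in ovaries of 36 °C, 92.3% in ovaries of 28 °C with prefix 128 and 89.5% in ovaries of 28 °C with prefix 204. Its neighbour 23501850, 3 bp away, had 97.2%, 97.7% and 96.8% in the same groups. The 2 CpGs stand together in 6 bases of the minus strand, shown because they share the same following base, with the CpGs in capitals.
chr14:23501845-23501850 minus: CGaCGa
The neighbour of 23502026 at 27 bp, 23502053, had 97.6%, 95.8% and 96.6% in those ovary groups, and so was near full beside one of the lowest members. Read numbers at 23501850 and 23502026 were uneven, as given below. The bases that follow did not single out the low members. Averaged over all ovaries, the 9 CGA members ranged over 73.4% to 97.2%, the 6 CGC members over 85.5% to 96.3% and the 6 CGG members over 80.1% to 97.0%, whereas the 3 CGT members had 94.1% to 96.7%.

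Testis was higher than ovary at all 3 amplicons after 28 °C with prefix 128. The chromosome 8 amplicon had a lowest, median and highest level of 90.5%, 97.4% and 97.7% in 12 testes, against 89.0%, 89.9% and 94.6% in 9 ovaries. The chromosome 14 amplicon had 94.5%, 97.8% and 99.0% in 13 testes, against 89.2%, 92.2% and 96.0% in 9 ovaries. The chromosome 20 amplicon had 86.2%, 97.0% and 97.7% in testes, against 81.4%, 85.03% and 87.8% in ovaries. On each amplicon the testes overlapped the ovaries only through fish 20 and 22: the other 10 testes on chromosome 8 and 11 on chromosomes 14 and 20 lay above every ovary. The difference of testis minus ovary was 5.62 ± 0.8999 percentage points (SE) on chromosome 8, 4.59 ± 1.04 on chromosome 14 and 10.5 ± 1.31 on chromosome 20. The exact two-sided permutation test gave adjusted p = 0.00035, 0.0003 and 0.00027 in that order (Benjamini-Hochberg over the 20 amplicons, as for all amplicon p-values). Of those 20, 60% passed.

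By CpG, testis was higher at 17 of 24 members, where 35.4% of all 319 CpGs tested passed in either direction and 25.7% were higher in testis. None of the 24 was lower in testis, and 24 of 24 differences were positive. The share of positive differences was not counted over all CpGs. The called members were 3 of 4 on chromosome 8, 4 of 10 on chromosome 14 and 10 of 10 on chromosome 20. The median difference was 6.60 points over the 24 members and 0.049 over all CpGs tested. All CpGs include those of nearly unmethylated amplicons, such as chr5:34961306 with 34 CpGs and a mean level of 0.66%. Such CpGs have little room to differ, so the 2 medians are not a like comparison. The called shares over all CpGs or amplicons, here and below, include them too and carry the same limit. The largest was at chr20:1253053. There the lowest, median and highest levels were 76.3%, 95.5% and 97.3% in 13 testes, against 63.9%, 69.5% and 82.1% in 9 ovaries, a difference of 22.03 ± 2.73 points (exact permutation test, adjusted p = 0.0006 over all CpGs). Only the 2 lowest testes lay below the highest ovary, and the other 11 lay above all ovaries.

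At chr14:23502150 testes had 74.6%, 97.6% and 100% in the same form, against 57.2%, 70.2% and 90.2% in ovaries, a difference of 19.97 ± 4.65 (exact permutation test, adjusted p = 0.0015). The ovaries of this group were split by level and read depth on chromosome 14, as given below. At chr8:29856183 testes had 85.9%, 97.0% and 97.6%, against 81.5%, 86.1% and 98.3% in ovaries, a difference of 8.91 ± 2.01 (exact permutation test, adjusted p = 0.0027). A single ovary there was above all testes. By contrast, chr14:23501850 differed by 0.15 ± 0.45 points between 12 testes and 9 ovaries (exact permutation test, adjusted p = 0.868), 3 bp from 23501847, where the difference was 5.55 ± 0.972 (adjusted p = 0.0006). Reads at 23501850 were below 0.9 times the amplicon's median in 10 of 13 testes and 6 of 9 ovaries. At 23501847 this held for 0 fish of either group. Without the libraries of fish 20 and 22, 20 members passed and the amplicon differences were 6.61, 5.04 and 12.2 points on chromosomes 8, 14 and 20.

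Testis was also higher than ovary after 36 °C with prefix 204. On chromosome 8 the lowest, median and highest levels were 87.1%, 96.5% and 97.3% in 8 testes, against 89.9%, 91.3% and 95.03% in 11 ovaries. On chromosome 14 they were 94.8%, 97.5% and 97.7% in testes, against 90.1%, 93.3% and 97.3% in ovaries. On chromosome 20 they were 84.4%, 96.5% and 97.3% in testes, against 84.4%, 86.1% and 91.0% in ovaries. On chromosomes 14 and 20, 6 testes lay above every ovary, and 5 did so on chromosome 8. The libraries of fish 1 and 17 lay within the range of the ovaries, apart from fish 1 on chromosome 8, which lay below them all. On chromosome 14 these libraries, at 94.8% and 94.9%, lay above every ovary except fish 4, which had 97.3%. The next ovary there had 94.2%. Differences of testis minus ovary were 3.27 ± 1.32, 3.40 ± 0.685 and 7.12 ± 1.95 points on chromosomes 8, 14 and 20 (exact permutation test, adjusted p = 0.021, 0.0011 and 0.0033), and 73.7% of the 19 amplicons tested passed. On chromosome 14 these testes had 53570.5 to 195776 median reads per CpG. Ovary fish 16, 20 and 4 had 75146, 145652 and 252930 there, and all other ovaries with a level had 1191.5 to 14831. The part of depth in the chromosome 14 difference was not tested.

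Of the 24 members, 12 were higher in testis after 36 °C and 0 lower, beside 34% of 318 CpGs called in either direction and 26.7% called higher. They were 1 member on chromosome 8, 3 on chromosome 14 and 8 on chromosome 20. All 12 were among the 17 called after 28 °C with prefix 128, which is 70.6% of those 17 and 100% of the 12, and the 2 comparisons share no fish. The overlap over all CpGs tested was not counted, so this one is not shown to be particular to the members. The largest on each amplicon were chr20:1253053 with 90.3% ± 8.60 in testes and 76.1% ± 4.66 in ovaries (SD), chr14:23502026 with 94.2% ± 3.51 in testes and 80.1% ± 7.83 in ovaries, and chr8:29856417 with 94.5% ± 3.25 in testes and 89.0% ± 2.68 in ovaries. Their differences were 14.2 ± 3.35, 14.1 ± 2.67 and 5.51 ± 1.40 points (SE; exact permutation test, adjusted p = 0.0033, 0.0030 and 0.0059). Without fish 1 and 17, 16 members passed and the amplicon differences were 4.94, 4.07 and 9.90 points, which is over 1.5 times as large on chromosome 8.

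After 28 °C with prefix 204 no such difference was found, and both tissues carried the ovary-like profile. On chromosome 8 the lowest, median and highest levels were 85.2%, 90.1% and 91.3% in 9 testes, against 88.0%, 90.4% and 91.9% in 9 ovaries. On chromosome 14 they were 89.3%, 92.7% and 98.1% in 10 testes, against 90.5%, 92.1% and 94.0% in 9 ovaries. On chromosome 20 they were 81.9%, 85.9% and 89.4% in 9 testes, against 83.5%, 85.5% and 88.1% in 9 ovaries. The ranges overlapped on each amplicon. On chromosome 8, 0 testes lay above every ovary and 1 below, on chromosome 14 these counts were 1 and 2, and on chromosome 20 they were 2 and 1. The differences were -0.88 ± 0.728, 0.66 ± 0.862 and 0.46 ± 0.907 points (exact permutation test, adjusted p = 0.658, 0.693 and 0.693).

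Here 0 of 24 members passed the permutation test, beside 0% of 294 CpGs called, and limma and the quasi-binomial model also called 0. At an unadjusted p under 0.05 there were 2 members, beside 7.48% of all CpGs. These were chr14:23501847, with 93.9% ± 3.41 in 10 testes and 89.5% ± 2.60 in 9 ovaries (SD), and chr8:29856084, with 91.5% ± 3.20 in 9 testes and 94.5% ± 2.51 in 9 ovaries. Their differences were 4.31 ± 1.38 and -2.96 ± 1.36 points (exact permutation test, adjusted p = 0.643 and 0.647). On chromosome 20 the largest difference, at 1253028, was -3.91 ± 2.45 points and did not pass either (exact permutation test, adjusted p = 0.79).

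**Figure D2:**
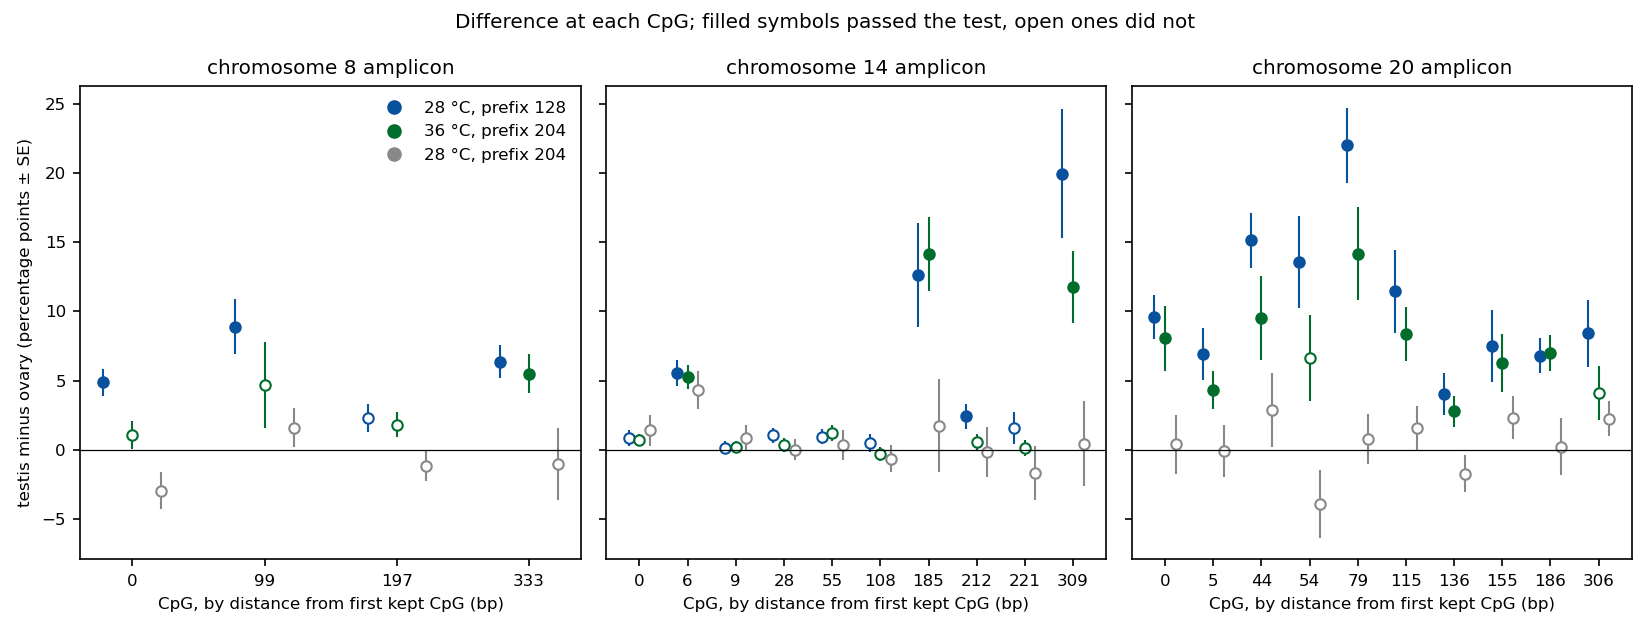
Difference of testis minus ovary in percentage points (± SE) at each member CpG, labelled by its distance in bp from the first kept CpG, for 28 °C with prefix 128 (blue), 36 °C with prefix 204 (green) and 28 °C with prefix 204 (grey). Filled symbols mark CpGs past an adjusted p of 0.05 in the permutation test: 17 of 24 in blue, 12 of 24 in green and 0 of 24 in grey.

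Within an amplicon, the tissue difference was spread unevenly. For each CpG and fish, the mean of the amplicon's other CpGs was subtracted, and this position contrast was compared between tissues. A positive value means that the gap between testis and ovary was wider at that CpG than at its neighbours. The contrasts within an amplicon are tied by arithmetic, so a strongly positive CpG pushes its neighbours below 0. After 28 °C with prefix 128, 15 of 24 members passed, 5 with a wider and 10 with a narrower gap, beside 23.1% of 316 CpGs. After 36 °C with prefix 204, 12 of 24 passed, 3 wider and 9 narrower, beside 13.6% of 316. Of these, 11 passed in both comparisons, each with the same sign, which is 73.3% of the 15 and 91.7% of the 12. This overlap was not counted over all CpGs either, and the tie within an amplicon adds to it. After 28 °C with prefix 204, 0 of 24 passed the permutation test, beside 0% of 294, and 2 had an unadjusted p under 0.05, beside 6.12% of all CpGs.

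On chromosome 14 the same 2 CpGs had the wider gap in both comparisons, and 7 others had the narrower one. At 23502150 the contrast was 17.1 ± 4.09 points after 28 °C with prefix 128 and 9.28 ± 2.25 after 36 °C with prefix 204 (exact permutation test, adjusted p = 0.0031 and 0.0192). At 23502026 it was 9.08 ± 3.18 and 11.9 ± 2.34 in the same order (exact permutation test, adjusted p = 0.0122 and 0.0084). On chromosome 20, 1253053 had 12.8 ± 1.92 and 7.85 ± 1.79 (exact permutation test, adjusted p = 0.00095 and 0.0095). The CpG 57 bp further on, 1253110, had -7.24 ± 1.64 and -4.84 ± 1.24 (exact permutation test, adjusted p = 0.0027 and 0.0175), so the widest and the narrowest gap of this amplicon stood close together. On chromosome 8, 29856183 had 4.39 ± 1.71 and 1.90 ± 2.52 in the same order (exact permutation test, adjusted p = 0.0417 and 0.738), and 29856281 had -4.43 ± 0.908 and -1.93 ± 1.77 (exact permutation test, adjusted p = 0.002 and 0.646), so neither passed after 36 °C. The chromosome 8 member that passed there was 29856084, with -0.97 ± 1.28 and -2.95 ± 0.908 (exact permutation test, adjusted p = 0.665 and 0.0425).

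Rearing temperature was set against level in testes of each prefix. With prefix 204, testes of 36 °C were higher than testes of 28 °C at all 3 amplicons. The levels of both groups were given above, and 7 of 8 testes of 36 °C on chromosome 8 and 6 of 8 on chromosome 20 lay above every testis of 28 °C. On chromosome 14, 0 of 8 did, since 1 testis of 28 °C, fish 2, reached 98.1% and all its other testes were at or below 93.7%. The differences of 36 °C minus 28 °C were 5.42 ± 1.38, 4.14 ± 0.892 and 7.79 ± 1.99 points on chromosomes 8, 14 and 20 (exact permutation test, adjusted p = 0.0047, 0.0039 and 0.005), where 68.4% of 19 amplicons passed. On chromosome 14 median reads per CpG were 53570.5 to 195776 in testes of 36 °C and 1745.5 to 43572 in testes of 28 °C. Every testis of 36 °C was thus read deeper there than any of 28 °C. The highest level at 28 °C, that of fish 2, came with the lowest depth, 1745.5 reads. The part of depth in this difference was not tested.

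By CpG, 10 of 24 members were higher in testes of 36 °C and 0 lower, beside 31.4% of 318 CpGs called in either direction and 29.6% called higher. They were 3 of 4 on chromosome 8, 2 of 10 on chromosome 14 and 5 of 10 on chromosome 20. At chr20:1253053 the lowest, median and highest levels were 74.9%, 94.4% and 97.2% in 8 testes of 36 °C, against 69.5%, 71.6% and 78.7% in 9 testes of 28 °C, a difference of 16.8 ± 3.33 (exact permutation test, adjusted p = 0.0073). At chr14:23502026 they were 88.0%, 95.7% and 96.7% in testes of 36 °C, against 69.7%, 75.6% and 99.4% in 10 testes of 28 °C, a difference of 16.3 ± 3.17 (exact permutation test, adjusted p = 0.0089). At chr8:29856417 the difference was 6.76 ± 2.73 (exact permutation test, adjusted p = 0.0319). These are CpGs that were also low in ovary, and the testes of 36 °C are shared with the tissue comparison at that temperature. Without fish 1 and 17, 16 members passed and the amplicon differences were 7.09, 4.81 and 10.6 points, and the quasi-binomial model called 17 with all libraries.

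With prefix 128, testes of 36 °C and of 28 °C were both near full methylation. On chromosome 8 the lowest, median and highest levels were 95.2%, 97.2% and 97.8% in 11 testes of 36 °C, against 90.5%, 97.4% and 97.7% in 12 testes of 28 °C. On chromosome 14 they were 93.2%, 97.5% and 98.0% in testes of 36 °C, against 94.5%, 97.8% and 99.0% in testes of 28 °C. On chromosome 20 they were 92.9%, 96.7% and 97.3% in testes of 36 °C, against 86.2%, 97.0% and 97.7% in testes of 28 °C. The groups overlapped on every amplicon, and the lowest testes on chromosomes 8 and 20 were those of fish 20 and 22. On chromosome 14 the lowest was fish 10 of 36 °C, which had 53.5% on 71 reads at 23502026. The highest there was fish 6 of 28 °C, with a median of 12 reads per CpG. The differences were 0.67 ± 0.718, -0.40 ± 0.505 and 0.99 ± 1.18 points (permutation test with 100000 resamples, adjusted p = 0.576 each), and those on chromosomes 8 and 20 turned negative without fish 20 and 22.

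Of the 24 members, 0 passed the permutation test, beside 0% of 312 CpGs, and limma and the quasi-binomial model called 0 as well. At an unadjusted p under 0.05 there was 1 member, chr14:23501869, with 97.1% in testes of 36 °C and 98.1% in testes of 28 °C, beside 6.09% of all CpGs. On each amplicon, the member differences that were largest in size were 1.49 ± 1.04 at chr8:29856183, -3.97 ± 3.71 at chr14:23502026 and 1.92 ± 1.87 at chr20:1253053, and each missed the threshold (permutation test, adjusted p = 0.704 each). At chr14:23502026 the testes of 36 °C ranged over 53.5% to 100%. The lowest, 53.5% in fish 10, rested on 71 reads where the median of the amplicon was 30646.5 in that fish. The highest, 100% in fish 2, rested on 10 reads.

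In ovary, temperature was compared with prefix 204 alone. On chromosome 8 the differences of 36 °C minus 28 °C were 1.27 ± 0.589 points, on chromosome 14 they were 1.39 ± 0.646 and on chromosome 20 they were 1.13 ± 0.816 (exact permutation test, adjusted p = 0.176, 0.176 and 0.456). Ovaries of 36 °C overlapped those of 28 °C on each amplicon, with 4, 3 and 2 of 11 above every ovary of 28 °C. The permutation test called 0 of 24 members, beside 0% of 294 CpGs, and limma and the quasi-binomial model called 0. An unadjusted p under 0.05 was found for 1 member, chr8:29856183, beside 6.8% of all CpGs. The amplicons on chromosomes 8 and 14 also had one, 0.0455 and 0.0488 in the exact permutation test. Of the member differences 21 of 24 were positive, and that share was not counted over all CpGs. The median difference over all CpGs tested was also positive, at 0.245 points. On each amplicon, the member differences that were largest in size were 3.18 ± 1.38 at chr8:29856183, 3.90 ± 2.90 at chr14:23502026 and 3.60 ± 2.28 at chr20:1253018, and none passed (exact permutation test, adjusted p = 0.566, 0.672 and 0.627). A single ovary of 36 °C, fish 4, had the highest level of its group on all 3 amplicons.

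**Figure D3:**
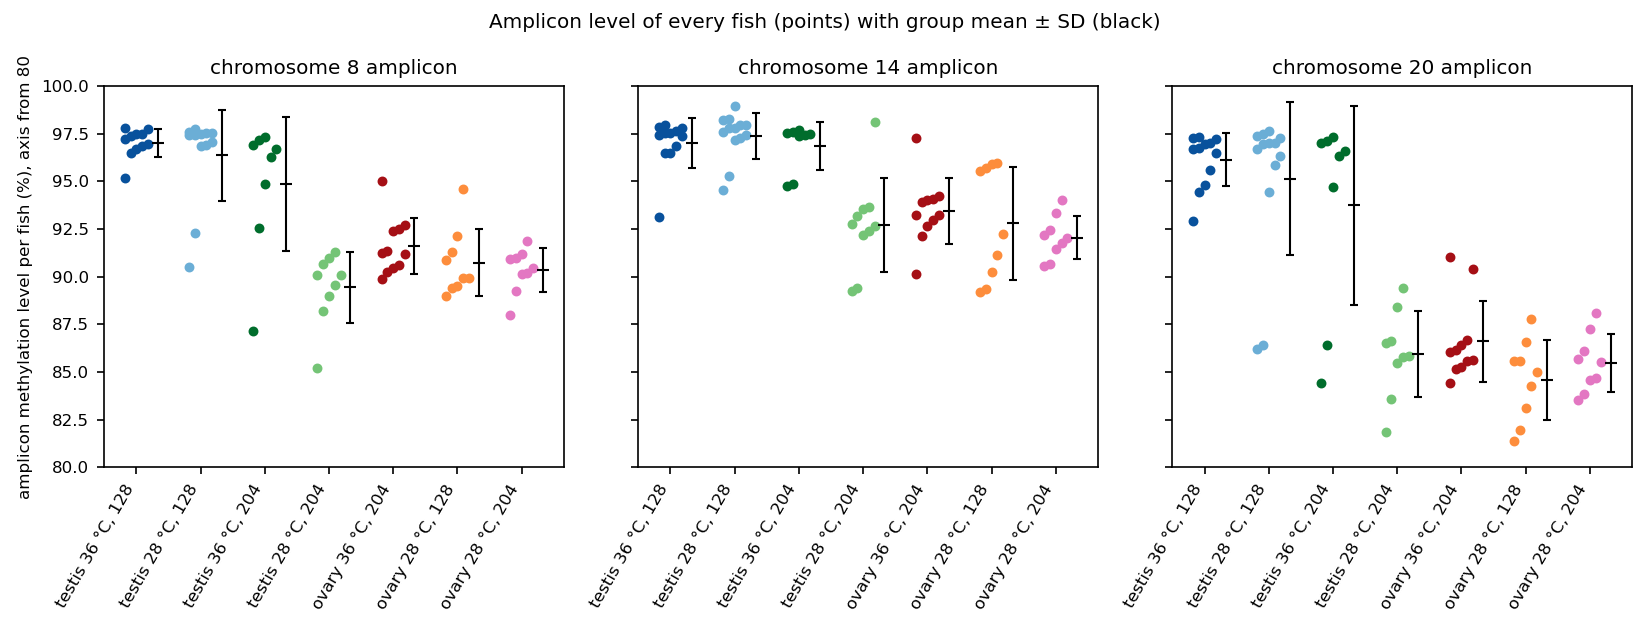
Amplicon methylation level (%, axis starting at 80) of every fish as a point, by group, with the group mean ± SD in black, on chromosomes 8, 14 and 20. The testes of 28 °C with prefix 204 sit with the ovaries, at 81.9% to 89.4% on chromosome 20, and a pair of low points stands apart in testes of 28 °C with prefix 128 and in testes of 36 °C with prefix 204.

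Testes of 28 °C were higher with prefix 128 than with prefix 204 at all 3 amplicons. The differences of prefix 128 minus prefix 204 were 6.91 ± 0.921, 4.69 ± 0.843 and 9.18 ± 1.34 points on chromosomes 8, 14 and 20 (permutation test, exact on chromosomes 8 and 20, adjusted p = 0.0002, 0.0002 and 0.00028), where 75% of 20 amplicons passed. On chromosomes 8 and 20, 11 testes with prefix 128 lay above every testis with prefix 204. On chromosome 14, 3 of 13 did, since fish 2 with prefix 204 reached 98.1%. By CpG, 16 of 24 members were higher with prefix 128 and 0 lower, beside 34.8% of 319 CpGs called in either direction and 26.6% called higher. They included all 4 members on chromosome 8 and 9 of 10 on chromosome 20, and 3 of 10 on chromosome 14. The largest per amplicon were 9.81 ± 1.55 at chr8:29856183, 18.3 ± 2.98 at chr14:23502026 and 19.4 ± 2.24 at chr20:1253053 (permutation test, adjusted p = 0.00081, 0.00082 and 0.00026).

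In testes of 36 °C, 1 of the 3 amplicons, that on chromosome 8, passed the test between prefixes. The chromosome 8 amplicon was higher by 2.16 ± 1.26 points with prefix 128 than with prefix 204 (exact permutation test, adjusted p = 0.031; 72.2% of 18 amplicons passed), and those on chromosomes 14 and 20 differed by 0.16 ± 0.583 and 2.38 ± 1.89 (exact permutation test, adjusted p = 0.8 and 0.191). Of the 24 members, 1 passed, chr8:29856183, beside 35.2% of 310 CpGs called in either direction and 12.3% called higher. It had 97.1% ± 0.744 with prefix 128 and 92.1% ± 8.26 with prefix 204 (SD), a difference of 5.03 ± 2.93 (exact permutation test, adjusted p = 0.0252). In fish 1 of prefix 204 it was 72.9%, and without fish 1 and 17 the difference was 1.33 and no member passed. The chromosome 8 amplicon then differed by 0.49 points (exact permutation test, adjusted p = 0.322). The members with the largest differences on the other amplicons, 1.99 ± 1.52 at chr14:23502150 and 4.58 ± 3.09 at chr20:1253053, missed the threshold (exact permutation test, adjusted p = 0.209 and 0.128).

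In ovaries of 28 °C, 0 of the 3 amplicons passed the test between prefixes. The differences of prefix 128 minus prefix 204 were 0.41 ± 0.700, 0.76 ± 1.058 and -0.90 ± 0.866 points on chromosomes 8, 14 and 20 (exact permutation test, adjusted p = 0.881, 0.782 and 0.701), where 5.56% of 18 amplicons passed. The permutation test called 0 of 24 members, beside 3.74% of 294 CpGs, with 1 member, chr14:23501847, at an unadjusted p under 0.05, as had 12.9% of all CpGs. The quasi-binomial model called 3 and limma 0. The differences largest in size on each amplicon were 2.49 ± 1.92 at chr8:29856183, 7.42 ± 4.06 at chr14:23502026 and -5.70 ± 3.16 at chr20:1253028 (exact permutation test, adjusted p = 0.737, 0.483 and 0.418).

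The differences between these differences were tested as interactions, by permuting residuals of the additive model. The gap of testis minus ovary at 28 °C was wider with prefix 128 than with prefix 204 by 6.50, 3.93 and 10.1 points on chromosomes 8, 14 and 20 (permutation test, adjusted p = 0.0004, 0.0072 and 0.0004; 55% of 20 amplicons passed). It passed at 12 of 24 members, beside 23.2% of 323 CpGs. They were 3 on chromosome 8, 1 on chromosome 14 (23502150, 19.5 points) and 8 on chromosome 20. At 23502150 the ovaries with prefix 128 were split by level and read depth, as given below. The difference of 36 °C minus 28 °C in testis was smaller with prefix 128 than with prefix 204 by the interaction values -4.75, -4.54 and -6.80 points (permutation test, adjusted p = 0.0065, 0.00095 and 0.009; 63.2% of 19 amplicons passed), and 11 of 24 members passed, beside 25.4% of 315. With prefix 204, the temperature difference was larger in testis than in ovary by 4.15, 2.74 and 6.66 points (permutation test, adjusted p = 0.0125, 0.0436 and 0.0071; 55% of 20 amplicons passed). There 3 of 24 members passed, all on chromosome 20, beside 17% of 323, and 10 had an unadjusted p under 0.05, beside 26.6% of all CpGs. Without the 4 libraries that stood apart, the second and the last of these tests passed at 19 and 14 members. The 3 interactions share groups, so they are not independent.

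The chromosome 14 amplicon had an uneven number of reads at 2 of its CpGs. At 23501850 the reads were below 0.9 times the amplicon's median in 27 of 72 fish, and in 16 fish the ratio was 0.4 to 0.6. At 23502026 it was below 0.9 in 49 of 72 fish, 0.4 to 0.6 in 30 fish and below 0.1 in 3. At the other 8 CpGs of the amplicon the ratio was 0.938 to 1.01 in every fish. Counts by group were as follows, with no test between groups. At 23501850 a ratio below 0.9 occurred in 4 of 12 and 10 of 13 testes with prefix 128 (36 °C and 28 °C), in 4 of 8 and 0 of 10 testes with prefix 204, in 3 of 11 ovaries of 36 °C, and in 6 of 9 and 0 of 9 ovaries of 28 °C with prefixes 128 and 204. At 23502026 the same counts were 10 of 12, 9 of 13, 4 of 8, 7 of 10, 5 of 11, 9 of 9 and 5 of 9.

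A methylation level uses only the reads called as methylated or unmethylated at that position, so these 2 levels rest on fewer reads in those fish. The part of the uneven read number in the levels was not tested. Leaving the 2 CpGs out of the amplicon mean ended none of its calls between 2 groups, and the levels of the other CpGs do not depend on them. The position contrasts of the other CpGs do, since each subtracts a mean that includes these 2. Neither the contrasts nor the interaction tests of the amplicon were repeated without them. The CpG 23501850 was near full in all groups, whereas 23502026 was among the lowest members in ovary.

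**Figure D4:**
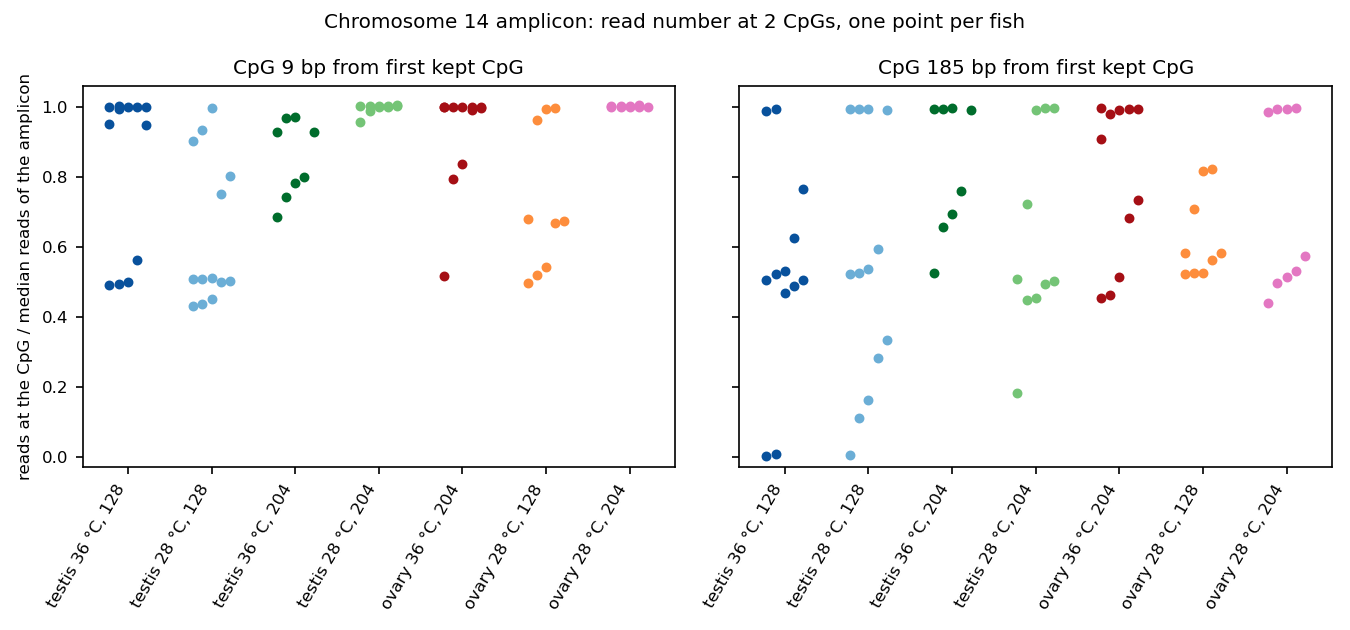
Number of reads at 2 CpGs of the chromosome 14 amplicon divided by the median over its 10 CpGs, with a point for each fish, by group. Many fish lie near 1 or between 0.4 and 0.6, and at the CpG in the right panel (23502026) 3 fish lie below 0.1.

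Ovaries of 28 °C with prefix 128 fell into separate values on chromosome 14. Fish 15, 17, 14, 10 and 12 had amplicon levels of 89.2%, 89.4%, 90.2%, 91.1% and 92.2%, and fish 8, 7, 3 and 9 had 95.5%, 95.7%, 95.9% and 96.0%. At 23502150 the first 5 had 57.2%, 65.8%, 70.2%, 64.1% and 68.6%, and the other 4 had 84.4%, 88.1%, 90.2% and 88.4%. No fish lay between 92.2% and 95.5%. Median reads per CpG moved with this split, at 3982.5 to 7384 in the first 5 fish and 30318 to 111290 in the other 4. Fish numbers did so too, from 10 to 17 in the first 5 and from 3 to 9 in the other 4. The part of depth or fish number in the levels was not tested. On chromosome 20 the same 9 ovaries lay between 81.4% and 87.8%.

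Levels of the 3 amplicons were compared across fish within each group. Of 21 relations (3 pairs of amplicons in 7 groups), Pearson's r passed an adjusted p of 0.05 in 10 by permutation and Spearman's rho in 0. In ovaries of 36 °C, chromosomes 8 and 14 had r = 0.876 and rho = 0.809 over 11 fish (permutation test, adjusted p = 0.0047 and 0.0734), and r was 0.691 without the 2 fish farthest from the median on chromosome 8. In testes of 28 °C with prefix 128, chromosomes 14 and 20 had r = 0.904 over 13 fish (permutation test, adjusted p = 0.0201), rho = 0.434 (adjusted p = 0.332) and r = 0.153 without the 2 farthest fish, so that relation rests on those fish.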

How the data were processed

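Gonad DNA of 73 fish was converted with bisulfite, amplified with multiplexed primers for promoter regions and sequenced on an Illumina HiSeq, per the labels' protocols. The authors deposited, for each fish, the count of methylated and of unmethylated reads at each CpG, with no normalization. The submitters' processing notes name Trim Galore 0.4.5, FastQC 0.11.6, Bowtie2, Bismark 16.0 and the build GRCz10. Whether PCR duplicates were removed, and the primers, were not given in the sources used here. The reads carry no molecular identifiers, so the fish was the replicate.

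A level needed 10 reads. Of 25217 listed CpGs, 324 had that depth in at least 50% of fish, and 323 of them formed 20 amplicons. An amplicon level was the mean over its CpGs where at least 50% had a level. The temperatures behind HT and LT (36 °C, 28 °C) come from the series' design text. Mean levels were compared by two-sided permutation tests. They were exact where a side had under 10 fish and splits were at most 3000000, and otherwise used 100000 resamples. P-values were adjusted by Benjamini-Hochberg over the whole table of a comparison at 0.05, with at least 5 fish per side (for interactions 3 per group and 10000 resamples, whose smallest unadjusted p is 0.0001). Alternatives were other read minimums (5, 30 and 100), a coverage of 80% of fish, a quasi-binomial model, limma 3.58.1 in R 4.3.3, a block by fish number, both prefixes stratified, 4 libraries left out and each fish left out in turn. The tests were checked on simulated data. Python 3.11.15, NumPy 2.4.6, pandas 2.3.3 and SciPy 1.17.1 were used.

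The members, comparisons, tests and alternatives were chosen with earlier results of these data known. Named CpGs were those of the lowest and highest mean per amplicon, of the largest difference past the threshold (or, with none past it, of the largest difference) per comparison and amplicon, and the 3 largest position contrasts. CpGs named for uneven reads, for near-full levels, as neighbours or among the remaining contrasts and differences were chosen after their values were seen.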

Additional observations from a re-analysis of the deposited data

Results flagged for a closer look

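Dixon's 95% critical value was applied to 56 sets of 4 to 10 values (the 3 amplicons and 11 named CpGs in the 4 groups of that size). In 7 sets a fish had a gap to the next past that value. About 2.8 would do so by chance if the sets were independent and normal. They are not independent, since an amplicon level is the mean of its own CpGs in the same fish, so no excess over chance is read from the 7. In testes of 36 °C with prefix 204, fish 1 was lowest on the chromosome 8 amplicon at 87.1% (next 92.6%), at chr8:29856084 with 91.7% (next 95.7%) and at chr8:29856183 with 72.9% (next 89.2%). In testes of 28 °C with prefix 204, fish 2 was highest on the chromosome 14 amplicon at 98.1% (next 93.7%) and lowest at chr8:29856417 with 69.1% (next 86.5%). Fish 10 was lowest at chr20:1253028 in ovaries of 28 °C with prefix 128, at 60.5% (next 76.2%). Another fish 10 was lowest at chr8:29856084 in ovaries of 28 °C with prefix 204, at 88.9% (next 93.1%).

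The differences between groups that differed themselves, by the interaction test, were as follows on chromosomes 8, 14 and 20. The gap of testis minus ovary at 28 °C was wider with prefix 128 than with prefix 204 by 6.50, 3.93 and 10.1 points. The difference of 36 °C minus 28 °C in testis, prefix 128 minus prefix 204, was -4.75, -4.54 and -6.80 points. With prefix 204, the temperature difference in testis exceeded that in ovary by 4.15, 2.74 and 6.66 points.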

How the results depend on the processing

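Among counts of members called, 82 of 96 alternative values stayed within 1.5 times the main count. Where the main count was 0, an alternative of 0 was included in the 82. Some of these came from replicate blocks that could hardly pass, so the 82 does not measure how stable the other counts are. Testis against ovary at 36 °C gave 7 with a minimum of 5 reads, which admits ovary fish 14 with at most 5 reads per CpG. That minimum gave 7 for the interaction of temperature and prefix in testis and 0 for that of tissue and temperature. Testes of 36 °C against 28 °C with prefix 204 gave 17 by the quasi-binomial model and 16 without the 4 libraries. Without these libraries, the same 2 interactions gave 19 and 14. Testes of 36 °C by prefix gave 0 by the quasi-binomial model, limma and without the 4 libraries. The replicate block also gave 0 there, but with 5 shared fish numbers its test could not pass. Ovaries of 28 °C by prefix gave 3 by the quasi-binomial model. With both prefixes stratified, testis against ovary at 28 °C gave 12 and testes of 36 °C against 28 °C gave 9. Leaving out each fish gave 17 to 20 calls for testis against ovary at 28 °C with prefix 128, 10 to 14 at 36 °C, 8 to 15 for temperature in testes with prefix 204 and 16 to 18 for prefix in testes of 28 °C, and ended no amplicon call in these 83 refits.

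The sign differed from that of the main result in 22 values, each set against a difference that had not passed. For testis minus ovary at 28 °C with prefix 204 they were -0.44 and -0.051 on chromosomes 14 and 20 (quasi-binomial) and, with prefixes stratified, 2.58 on chromosome 8, 1.23 at chr8:29856084 and 5.57 at chr20:1253028. For testes of 36 °C minus 28 °C with prefix 128 they were, on chromosome 14, 0.17 (100 reads), 0.034 (quasi-binomial), 0.043 (without the 2 CpGs of uneven reads, chosen after seeing the data) and 1.49 (stratified), and at chr14:23502026 0.37 (quasi-binomial), 0.039 (block) and 4.66 (stratified). Chromosome 8 gave -0.094 (block) and -0.32 (without the libraries), chromosome 20 -0.72 and -0.61, and chr20:1253053 -0.75 and -0.61 likewise. For testes of 36 °C by prefix without the libraries they were -0.52 and -0.39 on chromosomes 14 and 20 and -0.21 at chr14:23502150. For ovaries of 28 °C by prefix it was -0.090 on chromosome 14 without the 2 CpGs. The stratified values average the differences of both prefixes, so in them the difference within 1 prefix did not itself change direction. For testis minus ovary on chromosome 8, the stratified value averages 5.62 points with prefix 128 and -0.88 with prefix 204. The causes of the other changes were not tested.

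The labels do not say that fish numbers pair samples. Same-numbered fish correlated above 0.1 in 3 of 7 pairs for temperature in testes with prefix 128, 1 of 6 in ovaries and 0 of 5 for prefix in testes of 36 °C. They did so in 2 of 3 pairs for temperature in testes with prefix 204, and in 2 of 2 for prefix in testes and in ovaries of 28 °C. Tissues within a prefix and temperature share 0 numbers. The replicate block was fitted for the first 3 comparisons and called 0 members in each. With 7, 6 and 5 shared numbers its smallest possible p is large for an adjustment over all CpGs. No conclusion is drawn from these counts of 0. The other comparisons share at most 3 numbers and were not fitted with it.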
